A study of Mus musculus with 32 samples.

Results

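Transcripts of T and natural killer (NK) lymphocytes were followed in brain cells sorted as microglia or macrophages. The members were 9 symbols: Cd3d, Cd3e, Cd3g, Cd8a, Lck, Cd2, Nkg7, Gzmb and Ncr1. A symbol was used where it matched a gene of the deposited table exactly. Of the 9 symbols, 2 matched, Cd8a and Lck, out of 17586 genes in the table. The other 7 were not analysed here. The results therefore describe a T cell co-receptor chain and a T cell kinase, and a direct marker of NK cells is not among them.

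RNA from 4 populations sorted from mouse brain was sequenced in 32 libraries, 8 per population. The tumour microglia and the macrophages, labelled differentiated or undifferentiated, were isolated from immunocompetent chimeric mice that carried intracranial tumours of GL-261, a mouse glioma line implanted into a host of the matching background. The normal microglia were taken from tumour-free mice. Each population was split evenly by recipient strain, with 4 C57BL/6J and 4 Pep3/CD45.1 libraries. Among the tumour libraries the former were labelled PEP-3 into WT and the latter WT into PEP-3, so every tumour mouse was grafted across these strains. The normal mice carry the label Nil and a strain but no donor, so recipient there means the mouse itself. No treatment is named for any group beyond the graft and the implanted tumour of the tumour mice. The antibodies and gates of the sort, the pooling of animals and the cells a host kept after grafting are not given in the sources used here.

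T cells recognise peptides held by MHC molecules through the T cell receptor, whose CD3 chains carry the signal inward. The co-receptor CD8 binds MHC class I, and its cytoplasmic tail holds the kinase Lck, which phosphorylates CD3 chains when the receptor is engaged. Cytotoxic T cells and NK cells enter gliomas in small numbers beside the far more abundant microglia and macrophages, and Cd8a is also made by a subset of dendritic cells.

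The upstream sequence of each member is shown because both genes were higher in differentiated macrophages than in tumour microglia, and it lets their control regions be read side by side. The windows are the 250 bases before each transcription start in the RefSeq annotation of GRCm38.p6, which is a later build than the mm9 build named for the reads. Cd8a lies on the forward strand, and its window is chr6:71373177-71373426. Lck lies on the reverse strand with 2 annotated starts 15269 bases apart, and the windows are chr4:129573642-129573891 for the upstream start and chr4:129558373-129558622 for the downstream start. Capitals mark matches, on either strand, to 4 short motifs: the ETS family core, written GGAA, the E-box, written CANNTG, the RUNX core, written TGTGGT, and the TATA box, written TATAAA.
Cd8a: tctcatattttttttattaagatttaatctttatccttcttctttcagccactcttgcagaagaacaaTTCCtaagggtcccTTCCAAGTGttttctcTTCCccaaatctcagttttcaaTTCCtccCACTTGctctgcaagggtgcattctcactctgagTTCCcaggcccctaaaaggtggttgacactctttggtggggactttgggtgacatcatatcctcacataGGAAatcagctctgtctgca
Lck upstream start: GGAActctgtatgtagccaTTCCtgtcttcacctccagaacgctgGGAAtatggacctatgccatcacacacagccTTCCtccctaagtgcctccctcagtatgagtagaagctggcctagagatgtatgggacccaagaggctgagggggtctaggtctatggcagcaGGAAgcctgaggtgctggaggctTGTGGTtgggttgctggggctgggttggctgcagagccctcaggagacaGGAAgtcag
Lck downstream start: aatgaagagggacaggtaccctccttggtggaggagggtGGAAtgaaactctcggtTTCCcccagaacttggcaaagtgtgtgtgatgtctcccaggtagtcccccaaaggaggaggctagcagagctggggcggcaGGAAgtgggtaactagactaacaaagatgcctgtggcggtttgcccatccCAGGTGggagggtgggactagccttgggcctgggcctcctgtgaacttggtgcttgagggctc

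GGAA occurred 6 times in the Cd8a window, 6 times at the upstream Lck start and 3 times at the downstream start. It is a common word, present in 93.4% of 32851 RefSeq promoter windows of this length. These windows leave out 1 chromosome, and the other shares and the median given here are over the same windows. CANNTG occurred 2 times in the Cd8a window, 0 times at the upstream Lck start and 1 time at the downstream start, and 66.2% of all windows hold it. Of the 2 CANNTG matches of Cd8a, the one read as CAAGTG shares 1 base with the TTCC before it. TGTGGT, present in 14% of all windows, occurred only at the upstream Lck start, 1 time, and TATAAA, present in 12.4%, in none of the 3 windows. The windows were 42.8% G and C for Cd8a, and 56.4 and 58% for Lck, against a median of 52.4%. These matches are letters and not measured binding, and they were not related to the scores. In the same annotation 1 other gene, the microRNA Mir8119, overlaps Lck, and 0 overlap Cd8a.

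All values are scores of the deposited table, which are signed, centred at 0 for every gene and of a log-like spread, with no stated base. A score is not an expression level, so no fold changes are given, Cd8a and Lck are not compared in abundance, and a score below 0 does not mean that a transcript was missing. The depth of sequencing is not known. A difference is a limma estimate in units of this scale with ± 1 standard error, for 8 libraries against 8. It is adjusted for the sample directions without variation that are described below. It therefore need not equal the difference of the printed means, and its sign can differ. A gene was called at a limma adjusted p (Benjamini-Hochberg over all 17586 genes) below 0.05. Nothing in the labels ties each library to its own animal, and the p-values therefore rest on a spread between libraries that may be partly technical. In bulk libraries, fewer cells of a type and less RNA per cell cannot be told apart.

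Some facts of the table touch every result. The values held no variation in 11 sample directions, and 9 libraries kept under 50% of their own variation: 4 of normal microglia, 1 of tumour microglia and 2 of each macrophage population. Library medians ran from -0.63 to -0.02 in tumour microglia and from -0.49 to 0.05 in normal microglia. They ran from 0.00 to 0.58 in differentiated and from 0.06 to 0.46 in undifferentiated macrophages. The median gene therefore tended to score higher in macrophages, though not every kind of gene did. Each difference is also given with the library medians subtracted. Markers of the sorted populations were checked in the scores. All 12 microglia markers measured were lower in differentiated macrophages than in tumour microglia, and 10 of 11 monocyte and macrophage markers were higher. The microglial surface protein Tmem119 fell by 2.37 ± 0.30, and the matrix protein Tgfbi, made by monocyte-derived macrophages, rose by 4.58 ± 0.33.

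Cd8a encodes the alpha chain of CD8. In normal microglia its score was -1.77 at the lowest, 0.22 at the median and 0.86 at the highest (mean -0.01 ± 0.87, SD, n = 8). In tumour microglia the lowest, median and highest were -2.11, -1.32 and 0.10 (mean -1.16 ± 0.81, SD, n = 8). Tumour microglia were thus mostly negative, with 7 of 8 libraries below 0, while 5 of 8 normal microglia libraries were above it. In differentiated macrophages Cd8a ran from 0.23 through a median of 0.49 to 1.39 (mean 0.66 ± 0.48, SD, n = 8). In undifferentiated macrophages it ran from -0.25 through 0.44 to 1.71 (mean 0.51 ± 0.58, SD, n = 8). All 8 differentiated libraries and 7 of 8 undifferentiated libraries lay above 0, and every differentiated library lay above every tumour microglia library.

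Lck encodes the Src family kinase that starts signalling from the T cell receptor. Its score in normal microglia was -2.22 at the lowest, -0.69 at the median and 0.59 at the highest (mean -0.76 ± 0.88, SD, n = 8). In tumour microglia these values were -1.97, -0.99 and 1.28 (mean -0.74 ± 1.13, SD, n = 8). Both microglial populations lay mostly below 0, with 1 of 8 normal and 2 of 8 tumour libraries above it. In differentiated macrophages the score ran from -1.10 through a median of 1.16 to 2.01 (mean 1.06 ± 0.96, SD, n = 8). In undifferentiated macrophages it ran from -0.87 through 0.40 to 1.32 (mean 0.45 ± 0.66, SD, n = 8). In each macrophage population 7 of 8 libraries were above 0, and the low library was 23 among the differentiated and 24 among the undifferentiated. The overlap with the microglia was wider than these libraries. Only 3 differentiated and 1 undifferentiated libraries lay above the highest tumour microglia library, and 7 and 3 above the highest normal library.

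**Figure D1:**
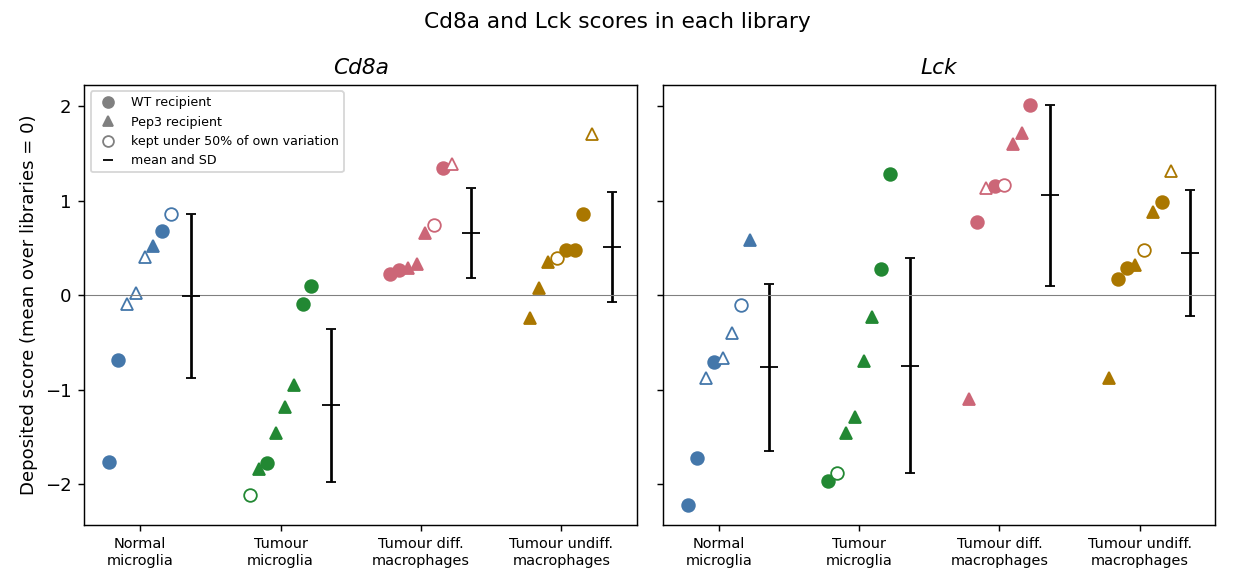
Deposited scores (y axis) of Cd8a and Lck in every library by population, as circles for C57BL/6J (WT) and triangles for Pep3/CD45.1 recipients, open where a library kept under 50% of its own variation, beside the mean and SD of each population. Cd8a in the 8 differentiated macrophage libraries lies above all 8 tumour microglia libraries, whereas Lck overlaps between all populations.

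Over the 4 populations together, both members differed by limma's F test, with an adjusted p of 0.00059 for Cd8a and 0.0027 for Lck. This was usual in the table, where 55.5% of all genes passed the same test. With the library medians subtracted the adjusted p was 0.012 for Cd8a and 0.055 for Lck, so only Cd8a passed. By mean score Cd8a ran from tumour microglia through normal microglia and undifferentiated macrophages to differentiated macrophages. Of its neighbours in that order, only tumour and normal microglia were called different. For Lck the means of normal and tumour microglia differed by 0.02, and were followed by undifferentiated and then differentiated macrophages, with no call between any neighbours.

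The first comparison set tumour microglia, from grafted mice with a tumour, against normal microglia, from mice with neither. Cd8a was lower in tumour microglia by -1.39 ± 0.40 (limma adjusted p = 0.02, 95% interval -2.22 to -0.57). The groups overlapped, with 3 tumour libraries below the lowest normal library. Lck gave -0.19 ± 0.49 (adjusted p = 0.82, interval -1.21 to 0.83). The plain means differed by -1.16 for Cd8a and by 0.02, of the opposite sign to the estimate, for Lck. So 1 of 2 members was called, where 16.7% of all genes were called, 12% lower and 4.66% higher. All genes had a median difference of -0.25, and 7.39% of genes had a difference as low as that of Cd8a or lower. Cd8a gave -1.15 with the library medians subtracted (adjusted p = 0.036), where 7.6% of all genes were lower. The Cd8a call was lost without normal microglia library 1 (-0.95, adjusted p = 0.45), 10 (-1.71, 0.065), 18 (-1.15, 0.18) or 26 (-1.47, 0.088), or tumour microglia library 27 (-1.15, 0.16). All 5 of these libraries kept under 50% of their own variation. Normal microglia came from experiments 1 and 2 and tumour microglia from experiments 3 and 4, so tumour, graft and experiment cannot be told apart.

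Differentiated macrophages against tumour microglia compared sorted populations of tumour-bearing mice. Both members were higher in the macrophages. Cd8a rose by 2.08 ± 0.41 (limma adjusted p = 0.00042, 95% interval 1.23 to 2.94), and Lck rose by 2.13 ± 0.51 (adjusted p = 0.002, interval 1.07 to 3.19). The plain means were higher by 1.82 and 1.80. The 8 and 8 Cd8a libraries did not overlap in this direction, as for 7.09% of all genes, while only 3 differentiated libraries lay above the highest tumour microglia library for Lck. The 2 of 2 count stands against 43.4% of all genes called, 37% higher and 6.35% lower. All genes had a median difference of 0.65, and 89.4% of genes had a difference no larger than that of Cd8a, 90.5% no larger than that of Lck. After subtraction of the library medians the differences were 1.42 for Cd8a (adjusted p = 0.0064) and 1.47 for Lck (adjusted p = 0.033), where 19.8% of all genes were higher and 19.2% lower.

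These increases held when any of the 16 libraries was left out, with Cd8a between 1.75 and 2.66 and Lck between 1.70 and 2.51. Without all 9 libraries that kept under 50% the differences were 2.61 and 3.00 with adjusted p of 0.39 and 0.45, in a fit with 6 residual degrees of freedom that called 0% of all genes (1935 at an unadjusted p under 0.05). The same libraries fitted without terms for the removed directions gave 1.49 for Cd8a (adjusted p = 0.0072) and 1.55 for Lck (adjusted p = 0.026), with 31% of all genes called.

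By its labelled number, each tumour experiment held tumour microglia of one recipient strain and macrophages of the other. The microglia and macrophages under one number thus carry labels of opposite grafts, and the labels do not explain this. In experiment 3, mean Cd8a was 0.65 ± 0.52 (SD, n = 4) in differentiated macrophages and -1.36 ± 0.38 in tumour microglia. In experiment 4 the means were 0.67 ± 0.51 and -0.97 ± 1.14 (SD, n = 4). The Cd8a means thus differed by 2.00 and 1.64 within the experiments, and in each all 4 macrophage libraries lay above all 4 microglia libraries. For Lck the means differed by 2.19 in experiment 3, where the groups did not overlap, and by 1.41 in experiment 4, where they did. Compared by recipient strain instead, Cd8a did not overlap in either strain, and Lck overlapped in both. The lowest differentiated Lck library was 0.78 in C57BL/6J and -1.10 in Pep3/CD45.1 recipients. The highest tumour microglia libraries were 1.28 and -0.23. The share of all genes without overlap between 4 and 4 libraries was not counted. These separations are therefore not set apart from those of other genes. Within an experiment the recipient strain cannot be told apart from the population.

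Undifferentiated macrophages against tumour microglia gave a rise of Cd8a and no call for Lck. Cd8a rose by 1.91 ± 0.43 (limma adjusted p = 0.0014, 95% interval 1.02 to 2.80), and 6 of 8 macrophage libraries lay above the highest tumour microglia library. Lck gave 1.22 ± 0.54 (adjusted p = 0.072, interval 0.11 to 2.32). The 1 of 2 count stands against 41.9% of all genes called, 36.7% higher and 5.19% lower, and all genes had a median difference of 0.71. Differences no larger than those of Cd8a and Lck were held by 85% and 64.4% of genes. Subtraction of the library medians gave 1.19 (adjusted p = 0.026) and 0.49 (adjusted p = 0.5), with 16.7% of all genes higher. Lck passed without tumour microglia library 3 (1.58, adjusted p = 0.015) or undifferentiated macrophage library 24 (1.40, adjusted p = 0.049). Within experiments 3 and 4 the Cd8a means differed by 1.91 and 1.45, and the Lck means by 1.40 and 0.99. The tumour microglia are shared by this comparison and the preceding ones, so their results are not independent of each other.

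The macrophage populations were not called different from each other in either member. Differentiated minus undifferentiated macrophages gave 0.17 ± 0.48 for Cd8a (95% interval -0.81 to 1.16) and 0.92 ± 0.59 for Lck (interval -0.30 to 2.14), both with a limma adjusted p of 1 and 0 with an unadjusted p under 0.05. In this comparison 0.0114% of all genes were called, and 0% were higher. The Lck difference was larger than that of 97.5% of genes, and its interval reaches from a small decrease to an increase as large as that over tumour microglia.

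Against normal microglia, differentiated macrophages were higher in Lck only. Lck rose by 1.94 ± 0.50 (limma adjusted p = 0.0058, 95% interval 0.91 to 2.97), and 7 of 8 macrophage libraries lay above the highest normal library. Cd8a gave 0.69 ± 0.40 (adjusted p = 0.18, interval -0.14 to 1.52). So 1 of 2 members was called, where 32.7% of all genes were, 24.7% higher and 8.02% lower, with a median difference of 0.53. Lck gave 1.52 with the library medians subtracted (adjusted p = 0.035), where 10.5% of all genes were higher. Its call was lost without normal microglia library 10 (1.50, adjusted p = 0.17) or 26 (1.86, adjusted p = 0.074), and without all 9 libraries that kept under 50% (0.89, adjusted p = 0.91, or 1.51, adjusted p = 0.11, with no terms for the removed directions).

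Undifferentiated macrophages against normal microglia gave 0.52 ± 0.43 for Cd8a (limma adjusted p = 0.37) and 1.02 ± 0.53 for Lck (adjusted p = 0.15). The 95% intervals were -0.37 to 1.40 and -0.07 to 2.12. Of 2 members 0 were called, and 0 had an unadjusted p under 0.05, where 28% of all genes were, 21.8% higher and 6.18% lower. The median difference of all genes was 0.57, above that of Cd8a.

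**Figure D2:**
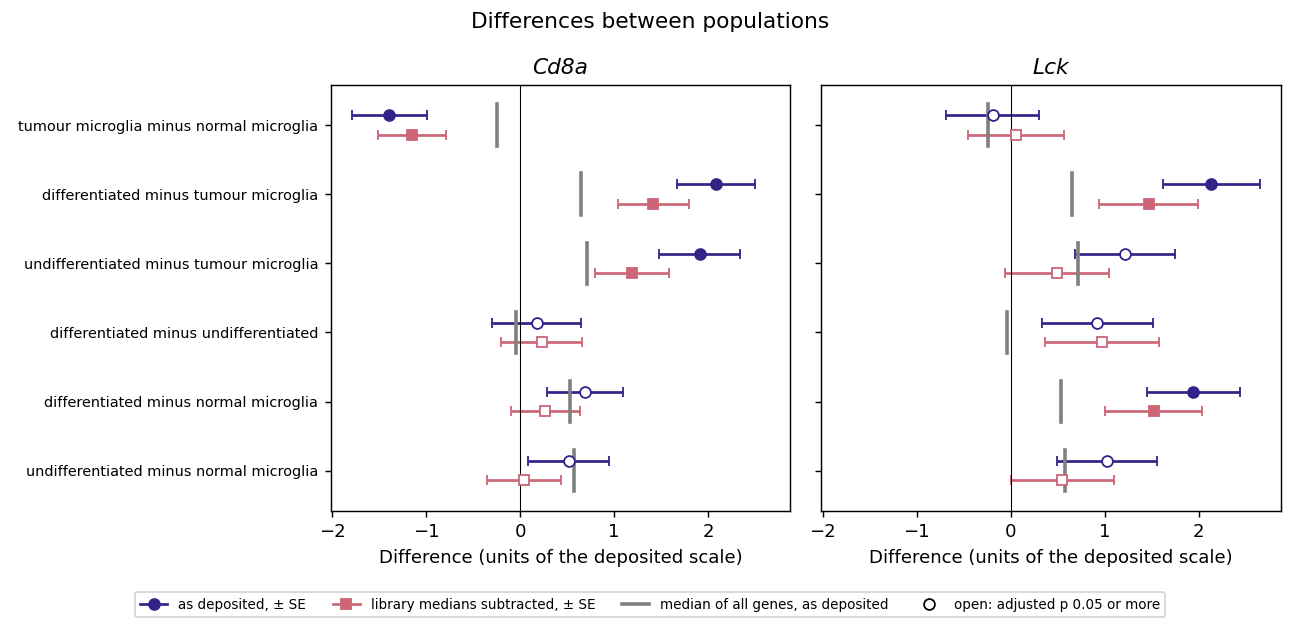
Differences of Cd8a and Lck in the 6 comparisons, in units of the deposited scale with ± 1 standard error, as deposited (circles) and with library medians subtracted (squares). Filled symbols passed an adjusted p of 0.05, and grey bars mark the median difference of all 17586 genes, 0.65 for differentiated macrophages minus tumour microglia, where both members lie to its right.

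Recipient strain was tested as a change of each difference between strains. Of 12 such tests on the members 0 were called by limma, with 3 at an unadjusted p under 0.05. Those with the smallest adjusted p were in tumour against normal microglia, where the C57BL/6J minus Pep3/CD45.1 change was 3.36 ± 1.27 for Cd8a and 4.16 ± 1.57 for Lck (each adjusted p = 0.12), and 5.03% of all genes were called. In the other 5 comparisons, in the order given here, 0.449, 0.00569, 0, 0.0171 and 0.0227% of all genes were called. The strain means of a single population could not be tested, since the deposited values average 0 within each strain.

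The other lymphocyte genes of the same pathways were read from 6 lists with 108 symbols, of which 61 were measured beside the members. In differentiated macrophages against tumour microglia 32 of these 61 were higher and 3 lower, with a median difference of 1.35 against 0.65 for all genes. That is 52.5% higher, against 37% of all genes. With the library medians subtracted 22 were higher (36.1%, against 19.8% of all genes) and 9 lower. In undifferentiated macrophages against tumour microglia 33 were higher (54.1%, against 36.7% of all genes) and 4 lower, with a median of 1.38. With the medians subtracted 20 were higher (32.8%, against 16.7% of all genes) and 8 lower. Without tumour microglia library 27, 23 and not 32 were higher in differentiated macrophages. Without all 9 libraries that kept under 50%, 0 were called with the terms for the removed directions (7 at an unadjusted p under 0.05), and 28 were higher and 2 lower without these terms. Between the macrophage populations 0 of 61 were called, with 2 at an unadjusted p under 0.05. In tumour against normal microglia 4 were higher (6.56%, against 4.66% of all genes) and 10 lower (16.4%, against 12%), 6 and 6 with the library medians subtracted, and 0 and 0 without normal microglia library 1.

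Of 5 receptor and co-receptor genes measured beside the members, 4 were higher in differentiated macrophages than in tumour microglia and 0 lower, also with the library medians subtracted. Of all genes 37% were higher as deposited, and 19.8% with the medians subtracted. Cd28, the costimulatory receptor, rose by 2.22 ± 0.47 (limma adjusted p = 0.00078), Tcra, the receptor alpha chain, by 1.99 ± 0.44 (0.0011), and Cd247, the zeta signalling chain, by 1.95 ± 0.48 (0.0024). Cd96, an adhesion receptor of T and NK cells, rose by 1.72 ± 0.36 (0.00062), while Cd27, a costimulatory receptor, gave 1.18 ± 0.62 (0.12). In undifferentiated macrophages, where Lck was not called, all 5 were higher than in tumour microglia, and 3 with the medians subtracted. The shares of all genes higher there were 36.7% and 16.7%. In tumour against normal microglia Tcra was lower by -1.39 ± 0.43 (adjusted p = 0.029), but not called with the medians subtracted (-1.15, adjusted p = 0.057), and the other 4 were not called.

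Of 17 genes that signal from the receptor beside Lck, 8 were higher in differentiated macrophages than in tumour microglia and 0 lower, where 37% of all genes were higher. With the library medians subtracted 6 were higher and 4 lower, where 19.8% and 19.2% of all genes were, and the median of the list was 0.39. Txk, a Tec family kinase, rose by 2.12 ± 0.32 (limma adjusted p = 4.7e-05). Themis, a regulator of thymocyte signalling, rose by 2.39 ± 0.40 (0.00011), and the adaptor Skap1 by 2.46 ± 0.36 (3.5e-05). In tumour against normal microglia 4 were lower and 1 higher, where 12% and 4.66% of all genes were. With the library medians subtracted 3 were lower and 1 higher. Themis fell by 2.04 ± 0.39 (adjusted p = 0.0017) and Skap1 by 1.28 ± 0.35 (0.016). Cd8a, Tcra, Themis and Skap1 were thus lower in tumour microglia, but most genes of these lists did not follow. Of the 17 signalling genes 12 were not called, nor were 4 of the 5 receptor genes, nor Lck.

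Of 15 transcription factors and differentiation genes of T cells, 11 were higher and 1 lower in differentiated macrophages than in tumour microglia. With the library medians subtracted 7 were higher and 1 lower. Of all genes 37% were higher and 6.35% lower as deposited, and 19.8% and 19.2% with the medians subtracted. Runx3, a factor of CD8 T cells that myeloid cells also express, rose by 4.34 ± 0.61 (limma adjusted p = 2.4e-05). Tcf7 and Bcl11b, factors of T cell commitment, rose by 2.48 ± 0.47 (0.00029) and 2.05 ± 0.40 (0.00035), and Ikzf3, a lymphoid zinc finger factor, by 2.31 ± 0.34 (3.3e-05).

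Of 9 activation and checkpoint receptors 2 were higher and 2 lower in differentiated macrophages than in tumour microglia, where 37% and 6.35% of all genes were. Lag3, an inhibitory receptor of T cells, fell by 2.14 ± 0.40 (limma adjusted p = 0.00026), and Havcr2, which myeloid cells also express, fell by 0.95 ± 0.32 (0.02). Il2ra, the alpha chain of the interleukin 2 receptor, rose by 1.56 ± 0.35 (0.0012). Of 6 cytotoxic effector genes 2 were higher and 0 lower than in tumour microglia, and 0 were called with the library medians subtracted. Of all genes 37% were higher as deposited, and 19.8% with the medians subtracted. Against normal microglia 4 of these 6 were higher and 0 lower in each macrophage population, where 24.7 and 21.8% of all genes were higher. The medians were 1.21 in differentiated and 1.24 in undifferentiated macrophages, against 0.53 and 0.57 for all genes. With the library medians subtracted 2 were higher in each, where 1843 and 1373 of 17586 genes were. The genes higher in differentiated macrophages than in tumour microglia were Prf1 and Fasl. In that comparison Prf1, the pore-forming protein perforin, rose by 1.54 ± 0.43 (0.0058) and gave 0.88 (adjusted p = 0.068) with the medians subtracted. Fasl, the death ligand, rose there by 1.59 ± 0.44 (0.0055) and gave 0.93 (0.08). In tumour against normal microglia the called genes of this list were Ccl5, a chemokine that macrophages also make, which rose by 3.16 ± 0.53 (0.00063), and the granule proteoglycan Srgn, which rose by 1.69 ± 0.38 (0.0048).

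NK receptors were measured for 9 genes, of which 5 were higher and 0 lower in differentiated macrophages than in tumour microglia. With the library medians subtracted 4 were higher and 2 lower. Of all genes 37% were higher and 6.35% lower as deposited, and 19.8% and 19.2% with the medians subtracted. Klrk1, the activating receptor NKG2D, rose by 2.62 ± 0.37 (limma adjusted p = 2.3e-05), Klrb1c, known as NK1.1, by 2.39 ± 0.61 (0.0034) and Cd160 by 1.57 ± 0.34 (0.00089). Kit, a growth factor receptor that mast cells and progenitors also carry, rose by 2.77 ± 0.46 (9.2e-05). In tumour against normal microglia Klrk1 fell by 1.28 ± 0.36 (0.017) and Kit by 2.23 ± 0.44 (0.0021), while Cd244, a receptor of NK cells, rose by 2.18 ± 0.53 (0.0083).

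Of 10 ligands that attract T and NK cells, 4 were higher and 0 lower in tumour than in normal microglia, and 6 and 0 with the library medians subtracted. Of all genes 4.66% were higher as deposited, and 1358 of 17586 with the medians subtracted. Cxcl9, an interferon-induced attractant of activated T cells, rose by 1.71 ± 0.54 (limma adjusted p = 0.034), Cxcl16, the ligand of Cxcr6, by 1.15 ± 0.34 (0.022) and Ccl4 by 4.40 ± 0.94 (0.0037). In differentiated macrophages against tumour microglia 3 were higher and 3 lower, where 37% and 6.35% of all genes were. Among those lower were Ccl4, which fell by 3.94 ± 0.97 (0.0028), and Il18, which fell by 1.77 ± 0.47 (0.004). Against normal microglia 5 of 10 were higher in differentiated and 6 of 10 in undifferentiated macrophages, with 1 lower in each. Of all genes 24.7 and 21.8% were higher in these comparisons, and 8.02 and 6.18% lower.

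Markers of several other cell types were also higher in differentiated macrophages than in tumour microglia, where 37% of all genes were. Higher were 7 of 13 B cell markers (1 lower), 5 of 8 dendritic cell markers (0 lower), 5 of 7 endothelial markers (0 lower), 4 of 5 neuron markers (0 lower), 5 of 7 astrocyte markers (1 lower) and 5 of 6 glioma cell markers (0 lower). With the library medians subtracted these numbers of higher genes were 6, 4, 2, 1, 3 and 4, where 19.8% of all genes were higher. Other lists were not: 1 of 5 oligodendrocyte markers was higher and 0 lower (median 0.17), 2 of 6 plasmacytoid dendritic cell markers were higher and 2 lower, and 0 of 12 proliferation genes were higher and 1 lower. The neuronal growth protein Stmn2 rose by 2.25 ± 0.33 (limma adjusted p = 3e-05), and Ptprz1, a phosphatase receptor of glial and glioma cells, by 2.39 ± 0.41 (0.00011). Both were lower in tumour than in normal microglia, by -1.33 ± 0.31 (0.0069) and -1.99 ± 0.39 (0.002), in the same directions as Cd8a. Of 10 broad leukocyte genes 1 was higher and 2 lower in differentiated macrophages than in tumour microglia, and 0 and 7 with the medians subtracted. Of all genes 6.35% were lower as deposited, and 19.2% with the medians subtracted.

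Olfactory receptor genes, which neither lymphocytes nor macrophages are known for, were added as a list after these values had been seen. Of 544 measured, 372 (68.4%) were higher and 0 lower in differentiated macrophages than in tumour microglia, with a median difference of 1.38. The corresponding share of the 61 lymphocyte genes was 52.5%, with a median of 1.35. With the library medians subtracted 132 olfactory receptor genes (24.3%) were higher, with a median of 0.72, against 36.1% and 0.68 for the lymphocyte genes. In undifferentiated macrophages 375 (68.9%) were higher, where 36.7% of all genes were. In tumour against normal microglia 59 (10.8%) were lower and 1 higher, where 12% and 4.66% of all genes were. What part carried-over lymphocytes, carried-over cells of other types or the shift of the library medians had in the member differences was not tested.

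**Figure D3:**
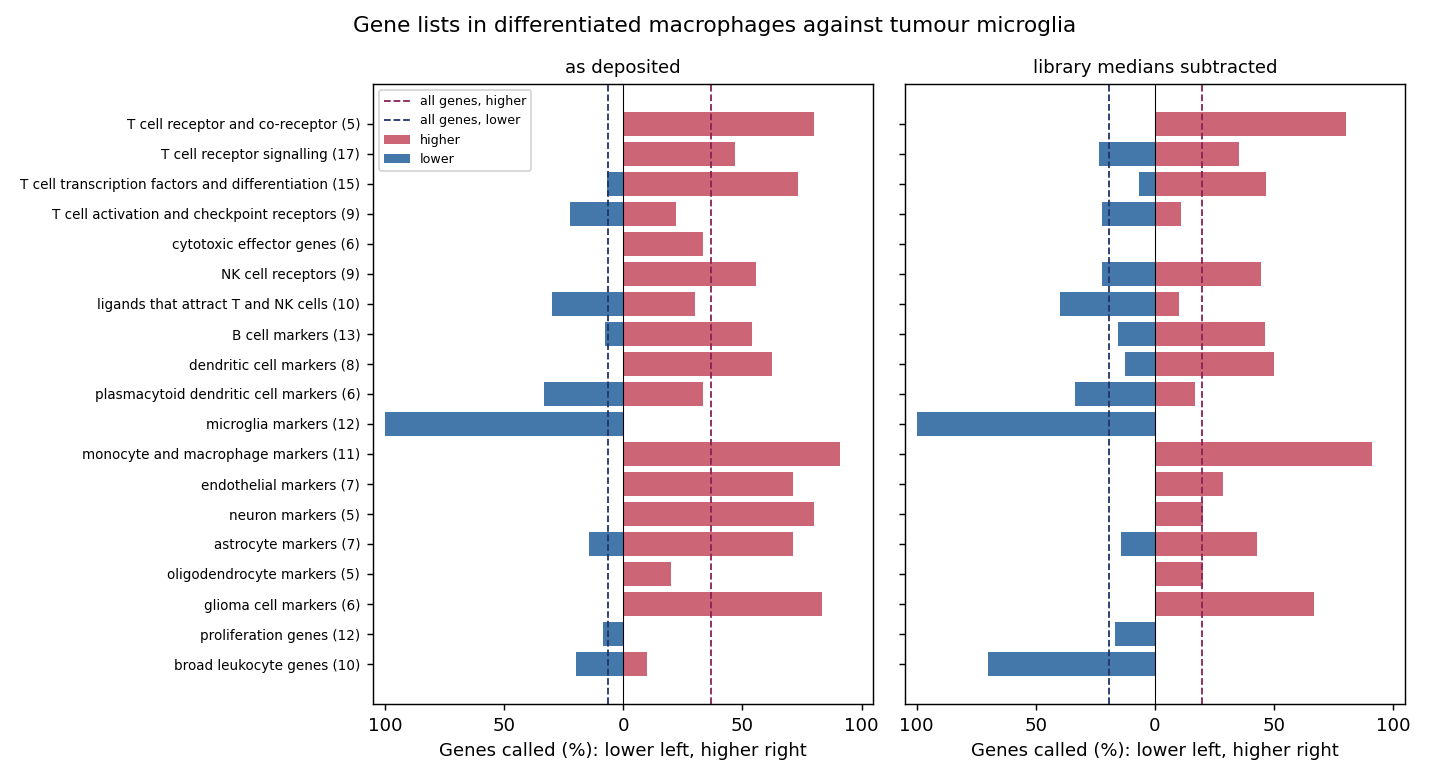
Percent of the measured genes of each list (number in brackets) called lower, left of 0, and higher, right of 0, in differentiated macrophages against tumour microglia, as deposited and with library medians subtracted; dashed lines give all genes. T cell receptor genes (4 of 5 higher) stand beside glioma cell (5 of 6) and neuron markers (4 of 5), whose shares are lower in the right panel.

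The members did not vary together closely. Over the 32 libraries, which share the populations and the removed directions, Pearson's r between Cd8a and Lck was 0.49 (Spearman's rho 0.48), and 0.38 without the 2 libraries farthest from the Cd8a median. After the means of each population and recipient strain were subtracted, r was 0.13. Cd8a followed the library median, with r of 0.84 over 32 libraries and 0.72 after the group means were subtracted, or 0.60 without the 2 farthest libraries. For Lck the same values were 0.58, 0.09 and 0.01. These are descriptions of values that share a table and its scaling.

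**Figure D4:**
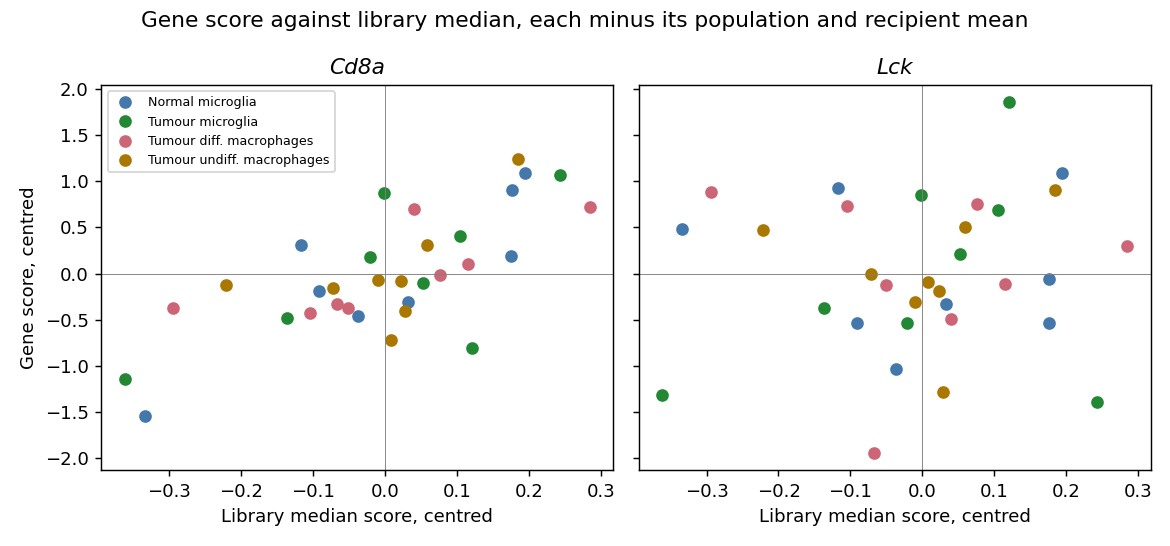
Scores of Cd8a and Lck against the median score of all genes in the same library, each minus its mean over the population and recipient strain, with a point per library coloured by population. Cd8a goes up with the library median (r = 0.72, n = 32) and Lck shows little relation to it (r = 0.09).

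The genes most like Cd8a over the 32 libraries, by Pearson's r among 17585 others, were Svep1, an extracellular matrix protein (0.954), Unc80, a subunit of a neuronal sodium leak channel (0.952), and Cr2, a complement receptor of B cells (0.937). In all, 1046 genes (5.95%) had r above 0.8 with Cd8a. With group means subtracted the most similar were Svep1 (0.922), Fmo2, a monooxygenase (0.912), and Pirt, a sensory neuron protein (0.909). Svep1 rose by 2.70 in differentiated macrophages over tumour microglia and fell by 1.40 in tumour against normal microglia, beside 2.08 and -1.39 for Cd8a. The genes most like Lck were Prr15 (0.874), Amd2 (0.858) and Hsf5, a member of the heat shock factor family (0.853), and 21 genes (0.119%) had r above 0.8. With group means subtracted 80 genes had r above 0.8 with Cd8a, 76 of them among the 1046, and 0 genes did with Lck.

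Among lymphocyte genes, Skap1 and Eomes, a T-box factor of effector T and NK cells, had r of 0.91 and 0.85 with Cd8a over the 32 libraries, and 0.81 and 0.86 with group means subtracted. They were singled out after the values were seen. The median r with Cd8a after subtraction was 0.48 for the 5 receptor genes and 0.42 for the 9 NK receptors, against 0.51 for the glioma cell markers and 0.18 for all genes. For Lck the median was 0.07 for the receptor genes, 0.18 for the NK receptors, 0.19 for the glioma cell markers and 0.03 for all genes.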

How the data were processed

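Expression was measured by RNA sequencing of cells sorted from mouse brain, with cDNA from a low-input SMART-Seq v4 kit, per the labels' protocols. FastQC, STAR 2.5.0a, RSEM 1.3.0 and build mm9 are named in the submitters' processing notes. The authors deposited 1 table of values called normalised, read here as a score, since they ran from -6.50 to 6.92. Every gene averaged 0 overall and within each recipient strain, and 11 directions among the 32 libraries held no variation. Which step removed them, the log base and the depth are not given in the sources used here. A limma fit on log2 values had been planned. As signed scores allow no logarithm, the values were used as deposited, without filter or pseudocount.

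The tests were two-sided, by limma 3.58.1 (R 4.3.3) with robust empirical Bayes on all 17586 genes. The model held a mean per population and recipient strain and terms for the 11 directions, and 15 residual degrees of freedom. Both strains weighed equally in a contrast, and p-values were adjusted by Benjamini-Hochberg within each of 6 comparisons. The code was tested on simulated data.

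Named genes are the members, the 5 genes of each list with the smallest p in the F test, and the 3 genes most like each member; some of these are not reported here. The members and the 22 lists were chosen with earlier results of these data known, so they are no independent evidence of direction.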

Additional observations from a re-analysis of the deposited data

Results flagged for a closer look

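Of 24 groups of 4 to 8 libraries checked for a library that stands apart, 1 had such a library. Lck in tumour differentiated macrophage library 23 scored -1.10, while the other 7 libraries ran from 0.78 to 2.01. The gap to the nearest library was 0.605 of the group's range, above Dixon's 95% critical value for 8 libraries. This rule marks about 1 in 20 groups by chance. Library 23 is a Pep3/CD45.1 recipient of experiment 4 that kept 85.7% of its own variation, and its Cd8a score of 0.33 lay within the range of its population.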

How the results depend on the processing

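Both members were called in the test over 4 populations, and 1 with library medians subtracted. Of the members called, the count fell from 1 to 0 for tumour minus normal microglia, from 2 to 0 for differentiated macrophages minus tumour microglia and from 1 to 0 for undifferentiated macrophages minus tumour microglia in fits to only the 2 populations, to C57BL/6J or Pep3/CD45.1 recipients alone, and without the 9 libraries that kept under 50%. It also fell from 1 to 0 for differentiated macrophages minus normal microglia in these fits. In these fits and comparisons limma called between 0 and 2.69% of all genes. With library weights the counts against normal microglia fell to 0 for tumour microglia and for differentiated macrophages, with 4.24 and 11% of all genes called. Without terms for the removed directions the counts rose to 2 for undifferentiated macrophages minus tumour microglia and 1 against normal microglia (Lck 1.19 and 1.21, adjusted p = 0.028 and 0.032). Without these terms 49 and 39.7% of all genes were called in the same comparisons.

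Settings added after the data were seen dropped those terms as well. Without the 9 libraries the count fell to 0 for tumour and for differentiated minus normal microglia. In these comparisons 0.756 and 18.5% of all genes were called. In C57BL/6J recipients the count was 0 for tumour minus normal microglia, with 0.984% of all genes called. It was also 0 there for differentiated and undifferentiated macrophages minus tumour microglia, with 17.6 and 10.4% called. In Pep3/CD45.1 recipients it was 0 for differentiated macrophages minus normal microglia, with 21.9% called.

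Leaving out a library gave counts of 0 to 1 for tumour and for differentiated minus normal microglia and 1 to 2 for undifferentiated macrophages minus tumour microglia. Signs turned only for differences that were not called. Cd8a in differentiated macrophages minus normal microglia became -0.75 with only the 2 populations and -0.25 in C57BL/6J recipients, and -0.42 there for undifferentiated macrophages. Cd8a in differentiated minus undifferentiated macrophages ran from -0.012 to 0.39 without a library. Lck in tumour minus normal microglia became 0.053 with medians subtracted, 0.017 without terms, 2.70 in C57BL/6J recipients and 0.61 there without terms, and ran from -0.57 to 0.41 without a library. The cause was not tested. The depth is unknown, so its limit on low-level genes could not be given. The populations share no replicate number. Each run of 8 consecutive library numbers holds 1 library of every population and strain, which the labels do not call a batch. Deviations from the group means had a median correlation of -0.0066 within such runs, with a range from -0.65 to 0.62. Between 26.3 and 49.3% of a block term lay in the removed directions. These correlations therefore cannot settle whether the runs pair libraries, and the main fit held no such block. A replicate block of these runs, added after the data were seen, raised the count for undifferentiated macrophages minus tumour microglia to 2 (Lck 1.45, adjusted p = 0.023) and changed no other call of a member. With the block 41.5% of all genes were called in that comparison. Experiment adds no block, since within a population it is the recipient strain, which the model already holds.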
